A study of Mus musculus with 4 samples.

Results

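The S100 proteins and the annexins are the main families of small cytosolic calcium sensors and calcium-dependent membrane binders of epithelial cells. In the deposited tables of cultured mouse pancreatic ductal cells, 30 genes of 22869 carried a symbol that begins with S100 followed by a, b, g, p or z, or that reads Anxa and a number. They are 17 S100 genes, 12 annexin genes and S100pbp, which encodes an S100P-binding protein and not an S100. A gene with more than 1 transcript is represented by the transcript of highest mean count over the 4 libraries.

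RNA was sequenced from primary ductal cells of C57BL/6 adult mice. The control group (n = 2) came from littermates with both Hhex alleles floxed and no Cre (HhexL/L), and the other group (n = 2) from mice that also carried Sox9CreER, a tamoxifen-inducible Cre under the Sox9 promoter. The mice were not induced, and the cells of both groups were given 500 nM 4-hydroxytamoxifen, which activates this Cre, for 4 days in culture. No group carried the Cre without floxed Hhex, so effects of the Cre and of a loss of Hhex cannot be told apart.

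The libraries held 25257778 to 39582625 counts. Hhex itself stood at 24.8 and 17.7 CPM (read counts scaled to library size, with TMM factors) in control cells and at 23.6 and 39.0 CPM in the other group. That group is therefore called the knockout-labelled libraries. The log2 fold change of Hhex against control was 0.55 ± 0.27 (SE, edgeR adjusted p = 0.735). The labels do not give the deleted part of the gene, so counts over the whole transcript cannot show whether that part was lost. All 11 ductal markers reached 10 counts, with a summed level of 12890 to 16780 CPM, or 6361 to 7539 CPM without Krt18. In 4 of them both knockout-labelled libraries lay above both controls (Krt7, Cdh1, Car2 and Sox9, the last at 18.0 and 21.4 CPM against 52.3 and 44.3 CPM), and in 3 below (Epcam, Spp1 and Cftr, the last at 33.6 and 35.1 CPM against 13.1 and 22.9 CPM), with 0 called by edgeR. Of all genes tested, 18.8% lay above in this way and 17.4% below. Without the most abundant marker of each list, summed levels in any library were at most 3.61 CPM for neutrophil, 18.96 CPM for macrophage, 27.4 CPM for fibroblast, 3.75 CPM for Schwann and 3.64 CPM for mesothelial markers. With Cd14, its most abundant marker, the macrophage list summed to 127.4 to 214.3 CPM. Labelled knockout replicate 2 differed from the other 3 libraries in sex, with Xist at 304 CPM against 0.750 to 1.75 CPM. In bulk RNA, fewer cells of a type and less RNA per cell cannot be told apart.

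S100 proteins are EF-hand proteins that mostly work as dimers: calcium binding opens a face that docks onto target proteins. Annexins bind acidic phospholipids of membranes when calcium rises, and act in membrane repair, vesicle traffic and the linking of membrane to actin. The families meet in the complex of annexin A2 with S100A10, in which an S100A10 dimer holds a pair of annexin A2 molecules at the plasma membrane. Many S100 genes lie side by side in the epidermal differentiation region.

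The promoters of 3 members that recur in the results are shown with their motif matches, since these genes were among the highest or stood apart between the groups. The windows are from RefSeq on GRCm38.p6, 5′ to 3′ on the gene's strand, and end where a GENCODE exon or the RefSeq start begins. Capitals mark matches to TATAAA, to the AP-1 motif TGANTCA or to the homeobox-type motif CAATTAA, searched on both strands. S100a6 lies at chr3:90612732-90612881 on the plus strand, S100a4 at chr3:90603620-90603769 on the plus strand and Anxa2 at chr9:69453470-69453619 on the plus strand.
S100a6: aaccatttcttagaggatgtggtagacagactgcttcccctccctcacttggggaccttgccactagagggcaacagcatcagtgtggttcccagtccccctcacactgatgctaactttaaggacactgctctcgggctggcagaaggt
S100a4: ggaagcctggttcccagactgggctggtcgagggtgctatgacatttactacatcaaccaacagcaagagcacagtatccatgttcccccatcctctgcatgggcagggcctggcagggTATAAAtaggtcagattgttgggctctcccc
Anxa2: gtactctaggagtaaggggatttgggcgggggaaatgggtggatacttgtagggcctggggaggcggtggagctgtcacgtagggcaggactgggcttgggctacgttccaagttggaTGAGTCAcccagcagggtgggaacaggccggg
S100a4 and S100a6, with S100a5 between them, differ here: S100a4 holds TATAAA from 31 to 26 bases before its start, while no motif letters matched in the S100a6 window. Anxa2 holds TGAGTCA from 95 to 89 bases before its RefSeq start, and a TATAAA from 17 to 12 bases before it that lies past the end of the printed stretch.

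RefSeq promoters matched 24 of the 30 members, in 32 windows of 250 bases before a start. TATAAA was in 6 of the 32 windows, against 12.37% of all 32851 windows, in Anxa1, Anxa2, Anxa10, S100a3, S100a4 and S100a8. The AP-1 motif was in 4 windows, against 6.75% of all, in Anxa2, Anxa10, S100a11 and S100a16. The homeobox-type motif was in 1 window, that of S100g, against 2.31% of all. Matches are letters in a window and do not show binding.

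Levels were compared in the authors' RPKM (read counts scaled by transcript length and library size), which are per transcript length and so can be compared between genes. On average 7 members stood at 100 RPKM or more, 8 between 10 and 100, 7 between 1 and 10 and 8 under 1. The first 5, Anxa1, S100a6, Anxa3, S100a10 and Anxa2, held 88.1% to 90.3% of the members' summed RPKM in each library. Among all 22869 genes, Anxa1 ranked 7, S100a6 8, Anxa3 10, S100a10 22 and Anxa2 24 by mean RPKM. Of the counts summed over 1 transcript per gene, the 30 members took 1.07% and 1.27% in control cells and 1.58% and 1.39% in the knockout-labelled libraries.

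**Figure D1:**
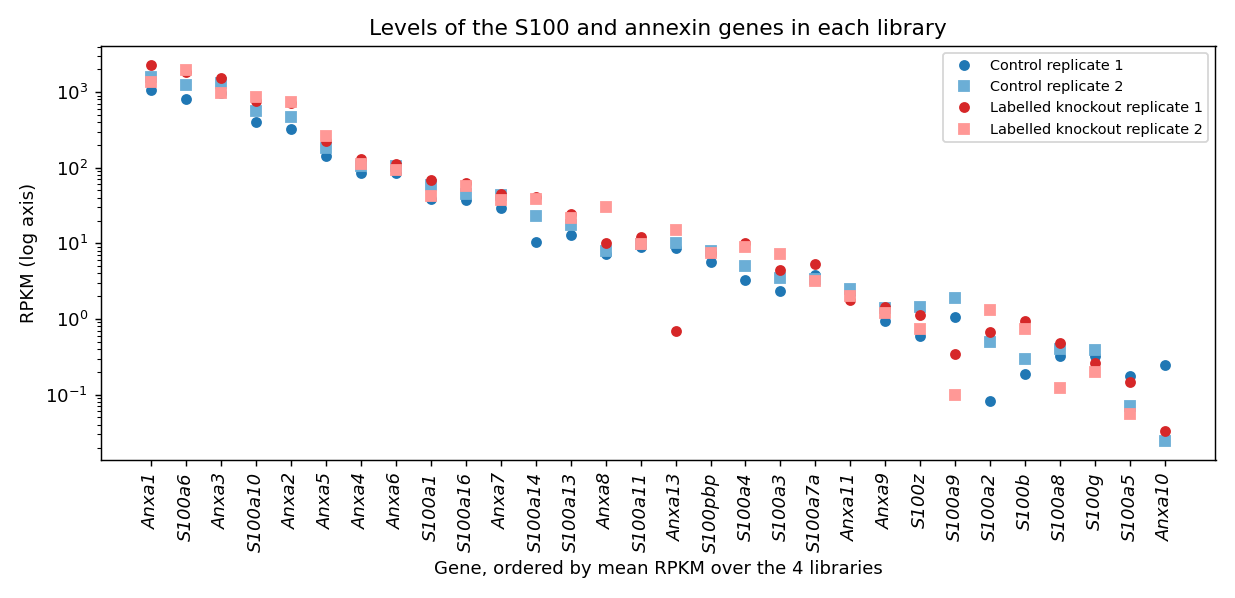
RPKM (log axis) of the 30 genes in each library, ordered by the mean over the 4 libraries; blue points are controls and red points knockout-labelled libraries. Anxa1, S100a6 and Anxa3 lie at the top, and the Anxa13 point lies far below its other values in labelled knockout replicate 1; the 0 of Anxa10 in labelled knockout replicate 2 is not drawn.

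Anxa1, a glucocorticoid-induced annexin that restrains leukocytes, had the highest mean at 1579 ± 523 RPKM (SD, n = 4). S100a6, or calcyclin, followed at 1458 ± 530 RPKM (SD, n = 4), and Anxa3, an annexin of epithelia and neutrophil granules, at 1202 ± 271 RPKM (SD, n = 4). The ranges of these 3 overlapped, and their order changed between libraries. Below them S100a10 stood at 645 ± 205 RPKM and Anxa2 at 563 ± 202 RPKM (SD, n = 4 for each). Every library put S100a10 under Anxa3 and over Anxa2, although the ranges of S100a10 and Anxa2 overlapped.

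Anxa5, the annexin used as a probe for exposed phosphatidylserine, stood at 203 ± 50.8 RPKM (SD, n = 4), under every value of Anxa2. Anxa4 at 107 ± 18.1 RPKM and Anxa6, an annexin with a doubled core, at 98.3 ± 12.3 RPKM (SD, n = 4 for each) did not separate. S100a1 and S100a16 came next at 52.5 ± 14.6 and 50.8 ± 11.8 RPKM (SD, n = 4 for each) and did not separate either. Of the 29 pairs of neighbours in the order, 7 had ranges that did not overlap: Anxa3 over S100a10, Anxa2 over Anxa5, Anxa5 over Anxa4, Anxa6 over S100a1, S100a7a over Anxa11, Anxa11 over Anxa9, and S100g over S100a5.

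In the middle of the order stood Anxa7 at 38.7 RPKM, S100a14 at 28.4, S100a13 at 19.0, Anxa8 at 13.8 and S100a11 at 10.1 RPKM. Anxa13, the annexin of intestinal and kidney epithelium, had a mean of 8.61 RPKM, S100pbp 7.08, S100a4 6.85, S100a3 4.32, S100a7a 3.94, Anxa11 2.12 and Anxa9 1.25 RPKM. The levels of S100a11 and Anxa11 are uncertain, because reads can be shared with near-identical copies. GENCODE M21 lists 2 processed pseudogenes of at least 98.7% identity to S100a11 over 297 of its 511 transcript bases. It also lists 2 unprocessed pseudogenes of at least 99.7% identity over up to 657 of the 2394 bases of Anxa11. S100a4 shares 302 exon bases with an overlapping gene model, Gm42674, and S100a3 shares 144 with it, so their counts are uncertain to that extent. Shorter matches of at least 95% identity were found for S100a7a with many other genes, such as Clasp1 over 150 of 1280 bases. Anxa9 matched 6330562C20Rik at 99.0% over 100 of 1851 bases.

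Under 1 RPKM stood S100z, S100a9, S100a2, S100b, S100a8, S100g, S100a5 and Anxa10. S100a8 and S100a9, the calprotectin subunits that neutrophils hold in large amounts, had 2 to 9 and 2 to 30 counts in a library. S100g, the vitamin D-regulated calbindin-D9k, had 4 to 6 counts, S100a5 had 1 to 3, and Anxa10, an annexin of gastric epithelium, had 12 counts in control replicate 1 and 0 to 2 in the others. S100a2 had 1, 5, 10 and 17 counts. Anxa10, S100a2, S100g, S100a5 and S100a8 were too low to be tested.

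Of the 25 members that passed the filter on low counts, 0 passed an edgeR adjusted p of 0.05 between the groups, where 0.153% of the 20949 transcripts tested did so. The smallest edgeR adjusted p of a member was 0.2844, for S100a4. An unadjusted p under 0.05 was found for 12 of the 25, against 7.49% of genes tested. The DESeq2 Wald test called 4 of the members, all higher, and 1.07% of the transcripts it gave a p. Limma-trend on log2(RPKM + 1) called 4 members, of which 3 were higher, and 0.907% of the transcripts tested. With so few libraries a difference that misses the threshold does not show equal levels. Each 95% interval is for a single gene and is not adjusted for the number of transcripts tested. It can therefore leave out a fold of 1 where the adjusted p misses the threshold. The library titles carry different numbers, which are taken here to stand for separate animals.

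The log2 fold change (labelled knockout minus control) was positive for 21 of the 25, against 48% of genes tested, with a median of 0.28 beside -0.014 for all genes. Among genes of at least 100 CPM 67.2% were positive, and all 9 members at that level were. With library totals in place of TMM the number was 18 of 25, beside 37.4% of all genes. In 13 members both knockout-labelled libraries lay above both controls, against 18.8% of genes tested, and in 2 both lay below, against 17.4%. Among genes of at least 100 CPM the share above was 32%, and it held for 5 of the 9 members at that level. Of 42 tested markers of other cell types, 3 also lay above both controls (Msln, Vim and Cela2a) and 6 below (Sparc, Acta2, Col3a1, Gfap, Mrc1 and Wt1). Msln, which mesothelial and some ductal cells express, stood at 1584 and 2013 CPM against 3139 and 4486 CPM, while the other 4 mesothelial markers summed to 2.46 to 3.64 CPM with overlapping groups, and the part of such cells was not tested. For the S100 genes alone the count above was 9 of 13 tested, and for the annexins 4 of 11. Control replicate 1 was the lowest library for 20 of the 25 members, against 29.1% of genes tested. Without it 15 of the 25 had a positive log2 fold change, beside 52.4% of all genes. The number was 16 without labelled knockout replicate 1, beside 42.8% of all genes. It was 22 without control replicate 2, beside 51.4%, and 22 without labelled knockout replicate 2, beside 44%.

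**Figure D2:**
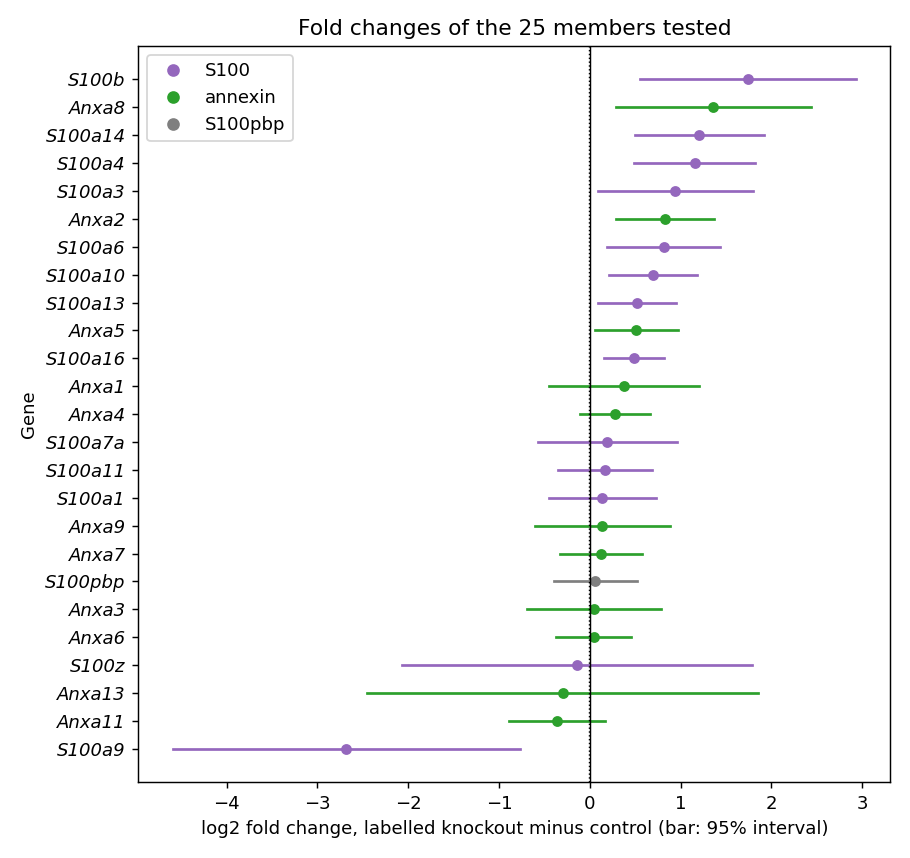
Log2 fold change (labelled knockout minus control) with its 95% interval for the 25 members tested, S100 in purple, annexins in green and S100pbp in grey; the dotted line is the median of all genes, -0.014. The points run from S100a9 at -2.68 to S100b at 1.74, and 21 lie above 0.

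The transcripts of both subunits of the annexin A2 complex had higher values in both knockout-labelled libraries, without passing the edgeR test. Anxa2, its membrane-binding subunit, stood at 635 and 829 CPM in control cells and at 1256 and 1350 CPM in the knockout-labelled libraries. The groups did not overlap, and the fold was 1.78 with a 95% interval from 1.23 to 2.58 (edgeR adjusted p = 0.357). S100a10, which binds its tail, stood at 372 and 471 CPM in control cells and at 622 and 746 CPM in the others. Here too the groups did not overlap, and the fold was 1.62 with an interval of 1.16 to 2.27 (edgeR adjusted p = 0.412). DESeq2 called both, at adjusted p = 0.0045 for Anxa2 and 0.0385 for S100a10, and limma-trend on log2(RPKM + 1) neither, at 0.374 and 0.541. The ratio of S100a10 to Anxa2 in RPKM was 1.24, 1.20, 1.05 and 1.17 in the 4 libraries, a spread of 1.18 between the highest and the lowest.

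Ahnak, the giant scaffold protein that docks on this complex, is a partner and no member. It stood at 1255 and 1640 CPM in control cells and at 2481 and 3152 CPM in the knockout-labelled libraries (log2 fold change 0.96 ± 0.29 (SE), edgeR adjusted p = 0.412). Plat, the tissue plasminogen activator gene whose product the complex binds at the cell surface, went the other way, at 190 and 157 CPM against 104 and 46.5 CPM (edgeR adjusted p = 0.368).

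S100a6, which binds the ubiquitin ligase adaptor Cacybp, stood at 818 and 1180 CPM in control cells and at 1652 and 1865 CPM in the knockout-labelled libraries. The groups did not overlap, and the fold was 1.76 with a 95% interval from 1.14 to 2.71 (edgeR adjusted p = 0.473, DESeq2 adjusted p = 0.0147, limma-trend adjusted p = 0.533). The ratio of S100a6 to S100a10 in RPKM was 1.99, 2.26, 2.40 and 2.26 in the 4 libraries. Cacybp itself lay between 88.5 and 110 CPM in all 4 libraries, and its groups overlapped.

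**Figure D3:**
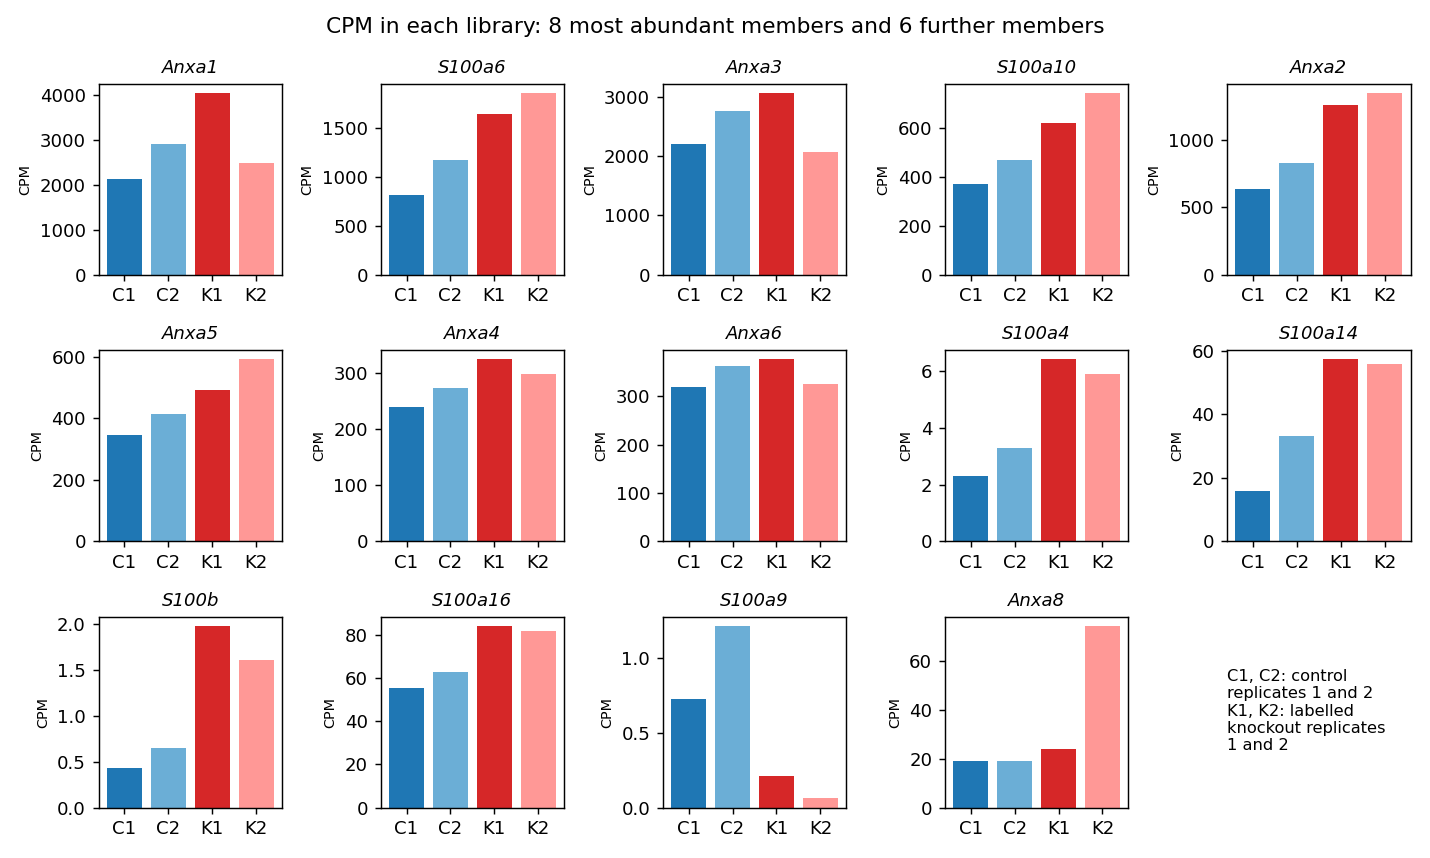
CPM in each library for the 8 most abundant members and the 6 further members with the smallest p; bars start at 0, with C1 and C2 the controls and K1 and K2 the knockout-labelled libraries. S100a6, S100a10, Anxa2 and Anxa5 are higher in both K libraries, Anxa1 and Anxa3 peak in K1 only, and Anxa8 in K2 only.

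The groups of the 2 most abundant annexins overlapped. Anxa1 stood at 2126 and 2911 CPM in control cells and at 4044 and 2490 CPM in the knockout-labelled libraries, a fold of 1.30 with a 95% interval from 0.731 to 2.30 (edgeR adjusted p = 0.897). Anxa3 stood at 2211 and 2768 CPM in control cells and at 3075 and 2071 CPM in the others, a fold of 1.03 with an interval of 0.618 to 1.73 (edgeR adjusted p = 0.986). For both, labelled knockout replicate 1 was the highest library and replicate 2 lay inside or below the controls. Without replicate 1 the log2 fold change of Anxa1 was -0.040 and that of Anxa3 -0.29, and without replicate 2 they were 0.67 and 0.29.

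Anxa5 stood at 345 and 416 CPM in control cells and at 492 and 593 CPM in the knockout-labelled libraries, a fold of 1.43 with an interval of 1.04 to 1.96 (edgeR adjusted p = 0.579). Anxa4, an annexin of secretory epithelia, stood at 240 and 274 CPM against 325 and 298 CPM, with a fold of 1.21 and an interval of 0.930 to 1.58 (edgeR adjusted p = 0.801). Neither overlapped between the groups. Anxa6 overlapped, with 319 and 363 CPM against 377 and 325 CPM, a fold of 1.03 with an interval of 0.775 to 1.37 (edgeR adjusted p = 0.976). Library totals and upper-quartile factors in place of TMM turn the sign of Anxa3 and Anxa6, whose fold is near 1.

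S100a14, an S100 of epithelia, stood at 15.9 and 33.3 CPM in control cells and at 57.3 and 55.9 CPM in the knockout-labelled libraries. The labelled knockout libraries were near equal and above both controls, which differed from each other. The fold was 2.31 with a 95% interval from 1.42 to 3.77 (edgeR adjusted p = 0.295), and DESeq2 gave an adjusted p of 0.0059 and limma-trend on log2(RPKM + 1) one of 0.0401. The log2 fold change, 1.21 with all libraries, was 0.76 without control replicate 1 and 1.87 without control replicate 2. The 3 transcripts of S100a14 had near-equal counts, so their log2 fold changes of 1.21 each are not independent of one another. S100a16, which lies beside it on the chromosome, stood at 55.5 and 62.9 CPM against 84.2 and 81.8 CPM, a fold of 1.40 with an interval of 1.11 to 1.77 (edgeR adjusted p = 0.408).

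S100a4, a myosin-binding S100 known from motile cells and fibroblasts, stood at 2.30 and 3.28 CPM in control cells and at 6.43 and 5.90 CPM in the knockout-labelled libraries. Its counts were 63 and 81 against 240 and 183, and the groups did not overlap. The fold was 2.23 with a 95% interval from 1.40 to 3.53 (edgeR adjusted p = 0.284), where limma-trend on log2(RPKM + 1) gave an adjusted p of 0.0264 and DESeq2 one of 0.107. Summed fibroblast markers were 39.7 and 43.6 CPM in control cells and 50.4 and 60.7 CPM in the others and 10 of the 12 reached 10 counts in a library. Vim took 12.3 to 47.9 CPM of that, and without Vim the sums were 27.4 and 23.7 CPM against 11.4 and 12.8 CPM. Of these Sparc stood at 12.0 and 13.1 CPM against 4.53 and 3.48 CPM. The part of such cells in S100a4 was not tested.

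S100b, the S100 of glia and melanocytes, had 12 and 16 counts in control cells and 74 and 50 in the knockout-labelled libraries, or 0.437 and 0.649 CPM against 1.98 and 1.61 CPM. The groups did not overlap, and the fold of 3.35 had a wide 95% interval of 1.46 to 7.65 (edgeR adjusted p = 0.407). Limma-trend on log2(RPKM + 1) called it (adjusted p = 0.0356), and DESeq2 did not (adjusted p = 0.270). The 6 Schwann and glial markers summed to 35.4 and 43.7 CPM in control cells and to 43.0 and 76.3 CPM in the others, nearly all of it Ncam1. Without Ncam1 the sums were 3.75 and 1.99 CPM against 2.17 and 3.00 CPM. Their defining gene Sox10 had 18 and 5 counts in control cells against 12 and 16, so that it overlapped between the groups.

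S100a9 was the member furthest in the other direction. It had 20 and 30 counts in control cells and 8 and 2 in the knockout-labelled libraries, or 0.729 and 1.22 CPM against 0.214 and 0.0645 CPM. The groups did not overlap, and the fitted decrease was 6.43-fold with a 95% interval from 1.71 to 24.2 (edgeR adjusted p = 0.419). The log2 fold change was -2.68 with all libraries, -3.83 without labelled knockout replicate 1 and -2.16 without replicate 2. On log2(RPKM + 1), which shrinks the change of low genes, it was -1.01, and limma-trend called it (adjusted p = 0.0043), while DESeq2 did not (adjusted p = 0.232). S100a9 reached the minimum count of 10 only in control cells. Its partner S100a8 had 5 and 5 counts in control cells and 9 and 2 in the others. The neutrophil list, of which 9 markers are in the table, summed to 88.6 and 66.0 CPM in control cells and to 52.3 and 75.3 CPM in the others, nearly all of it Ltf, the lactoferrin gene. Without Ltf the sums were 3.61 and 0.851 CPM against 1.20 and 2.16 CPM. The receptor gene Csf3r had 27 and 5 counts in control cells and 12 and 21 in the others, and the part of neutrophils in S100a9 was not tested.

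Anxa8, an annexin of squamous and basal epithelium, stood at 18.9 and 19.3 CPM in control cells, at 24.0 CPM in labelled knockout replicate 1 and at 74.5 CPM in replicate 2. The fold of 2.57 had an interval of 1.22 to 5.41 (edgeR adjusted p = 0.492), and without replicate 2 the log2 fold change was 0.31. Anxa13, singled out after its values were seen, showed the opposite library. It stood at 15.1 and 16.1 CPM in control cells, at 1.10 CPM in labelled knockout replicate 1 and at 24.8 CPM in replicate 2. Its log2 fold change was -0.30 with all libraries (edgeR adjusted p = 0.968), -3.84 without labelled knockout replicate 2 and 0.64 without replicate 1. With a single library left in a group, edgeR called Anxa13 lower in the first case (adjusted p = 7.11e-34), as 8.69% of transcripts were called in either direction, and higher in the second (adjusted p = 0.0057), where 7.86% were called.

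Among the 14 S100 genes of chromosome 3, the order by RefSeq is S100a1, S100a13, S100a14, S100a16, S100a3, S100a2, S100a4, S100a5, S100a6, S100a7a, S100a8, S100a9, S100a11 and S100a10. Neighbours had very unequal levels: S100a5, an S100 of olfactory neurons, averaged 0.113 RPKM beside S100a6 at 1458 RPKM. S100a1, the S100 of striated muscle, stood at 33.4 and 47.7 CPM against 54.2 and 34.9 CPM, and its groups overlapped. Its neighbour S100a13, which takes part in the export of FGF1, stood at 12.9 and 16.5 CPM against 21.8 and 20.3 CPM, with a fold of 1.43 and an interval of 1.06 to 1.94 (edgeR adjusted p = 0.524). The RPKM ratio of S100a1 to S100a13 was 3.01, 3.35, 2.88 and 2.00 in the 4 libraries. S100a3, a cysteine-rich S100 of hair, stood at 2.33 and 3.20 CPM against 3.96 and 6.74 CPM (edgeR adjusted p = 0.589).

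**Figure D4:**
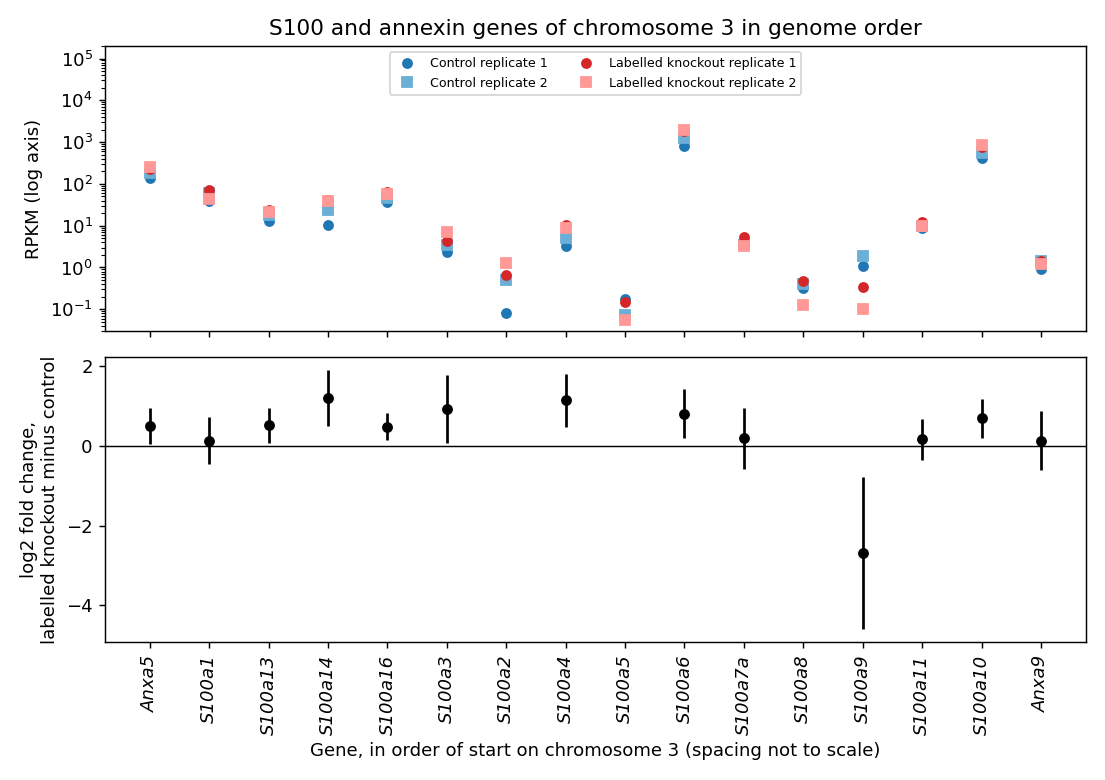
RPKM by library (upper panel, log axis) and log2 fold change with its 95% interval (lower panel) for the members of chromosome 3 in genome order, spacing not to scale. S100a6 and S100a10 stand far above their neighbours, and S100a9 is the only tested gene of the row with a negative log2 fold change.

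The remaining 7 tested members had no smaller edgeR adjusted p than 0.82. S100a11 stood at 6.30 and 6.45 CPM against 7.63 and 6.64 CPM, and Anxa11 at 7.32 and 7.87 CPM against 5.36 and 6.48 CPM. Anxa7 stood at 121 and 169 CPM against 168 and 147 CPM, S100pbp at 12.2 and 16.1 CPM against 14.4 and 15.1 CPM, and Anxa9 at 2.44 and 3.41 CPM against 3.40 and 2.97 CPM. S100a7a, a psoriasin homologue of inflamed skin, stood at 3.93 and 3.28 CPM against 5.04 and 3.16 CPM. S100z stood at 0.255 and 0.568 CPM against 0.429 and 0.290 CPM. The highest edgeR adjusted p of these was 0.983, for S100z.

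Genes that work with these families were listed alongside, and edgeR called none of them over all transcripts. Of 8 receptors for S100 proteins and annexins 6 were tested, 5 with a positive log2 fold change and 0 with an unadjusted p under 0.05. Bsg, or basigin, a receptor for S100A9, stood at 286 and 262 CPM against 486 and 305 CPM (edgeR adjusted p = 0.683). Ager, the receptor RAGE, stood at 2.51 and 1.34 CPM against 3.62 and 2.00 CPM, and Alcam, an adhesion molecule, at 236 and 222 CPM against 345 and 193 CPM. Fpr1 and Fpr2, formyl peptide receptors that annexin A1 acts on, were too low to test.

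Of the partner genes listed, 11 were tested, 6 positive and 5 negative. An unadjusted p under 0.05 was found for 2 of the 11, Ahnak and Plat, against 7.49% of genes tested. Stub1 stood at 120.5 and 140.4 CPM against 124.8 and 115.1 CPM, and its groups overlapped. Of the genes that fuse an S100 domain to a repeat protein of cornified epithelium 3 were tested and all 3 were negative. Tchh, or trichohyalin, stood at 3.90 and 4.46 CPM against 2.79 and 3.97 CPM, and Rptn and Flg2 were at most 1.13 CPM in any library. Of 15 other calcium-binding genes tested 8 were positive and 7 negative, and 2 had an unadjusted p under 0.05. In 5 both knockout-labelled libraries lay above both controls and in 3 below, against 18.8% and 17.4% of genes tested. Cpne8, a copine, stood at 27.4 and 23.5 CPM against 42.6 and 40.1 CPM (edgeR adjusted p = 0.214). Capns1, the calpain small subunit, stood at 95.2 and 108 CPM against 129 and 134 CPM (edgeR adjusted p = 0.599), and Pef1 at 29.1 and 29.7 CPM against 34.8 and 39.8 CPM.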

How the data were processed

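The authors deposited raw counts and RPKM values per RefSeq transcript, without normalization of the counts. The deposited RPKM scale those counts by transcript length and a library total. The submitters' processing notes name mm9 and edgeR, and the aligner, counting program and strand setting are not given in the sources used here. Relative to control replicate 1, the total behind the RPKM was 0.832 in control replicate 2, and 1.216 and 1.063 in labelled knockout replicates 1 and 2. The count totals were 0.99, 1.551 and 1.209, so RPKM and CPM differ between libraries. Limma-trend took the RPKM without further scaling. On log2(RPKM + 1) it gave 57.7% of all genes a positive log2 fold change, against 48% in the edgeR fit. RPKM were used for levels and counts for tests.

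Low transcripts were removed with filterByExpr (at least 10 counts, total of at least 15), and the rest were scaled with TMM and tested with edgeR 4.0.16 (R 4.3.3), quasi-likelihood F test with the bias-adjusted quasi-dispersion (legacy set to FALSE, chosen after the data were seen and the default had been run, to follow earlier processing), Benjamini-Hochberg adjustment over 20949 transcripts, threshold 0.05. The procedure was tested on simulated data. Fold intervals come from the F statistic. The alternatives were other scaling factors, no filter, DESeq2 1.42.0, limma-trend (limma 3.58.1) on log2(RPKM + 1) and log2(RPKM + 0.1), counts summed per symbol, 1 transcript per gene, each library left out and, added after seeing the data, the default quasi-dispersion. Members and lists were chosen with earlier results of these data known. Given in full are the 8 members of highest RPKM and the 6 others with the smallest p, and up to 3 genes of each companion list by smallest p. Cacybp is given in addition, beside S100a6.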

Additional observations from a re-analysis of the deposited data

How the results depend on the processing

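The 25 members gave 250 log2 fold changes over the 10 alternatives that keep every library, of which 233 kept direction and call, 12 passed the threshold that edgeR missed and 5 changed sign. The sign changes were Anxa3 at -0.0022 and Anxa6 at -0.0074 with upper-quartile factors, and Anxa3 at -0.029, Anxa6 at -0.033 and S100pbp at -0.0084 with library totals only. The number of members called, 0 in edgeR, was 4 with DESeq2 (S100a14, Anxa2, S100a10 and S100a6) and 4 with limma-trend at either pseudocount (S100a14, S100a4, S100b and S100a9), and the cause was not tested. The number of all transcripts called, 32 in edgeR, was 5 with upper-quartile factors and 5 with library totals, 303 with DESeq2, 190 with limma-trend on log2(RPKM + 1) and 221 on log2(RPKM + 0.1). Fewer features were tested with counts summed per symbol, which gave 14, and with 1 transcript per gene, which gave 2. When 1 library at a time was dropped, the lone library of its group being assumed to vary like the others, 0 to 1911 transcripts and 0 to 9 members were called. The 9 came without labelled knockout replicate 1 and 8 without replicate 2, and none without either control. The estimate of the quasi-dispersion in edgeR was set after seeing the data, when this fit and the one with the installed version's default had both been run, in order to follow earlier processing of these data. The default, added as an alternative after seeing the data, called 37 transcripts (27 higher and 10 lower) in place of 32, and 0 members. The log2 fold change of S100a14 without control replicate 2 was 1.87 with either setting. That of Anxa1 without labelled knockout replicate 2 was 0.67 with either setting. Whether these passed the edgeR threshold depended on the setting. For S100a14 the log2 fold change over the leave-one-out fits with both settings ran from 0.76 to 1.87. The range was 0.65 to 1.07 for Anxa2, 0.53 to 0.91 for S100a10, 0.57 to 1.14 for S100a6 and 0.91 to 1.46 for S100a4. Over the leave-one-out fits with both settings the log2 fold change ran from -0.040 to 0.67 for Anxa1, -0.29 to 0.29 for Anxa3, -0.095 to 0.18 for Anxa6, -0.099 to 0.42 for Anxa7, -0.098 to 0.42 for Anxa9, -3.84 to 0.64 for Anxa13, -0.24 to 0.45 for S100a1, -0.22 to 0.46 for S100a7a, -0.13 to 0.31 for S100pbp and -0.65 to 0.55 for S100z. No paired analysis was possible because the labels give the libraries no shared numbers, and no sample was left out of the main comparison. Depth limits the 8 members under 1 RPKM, where a library held at most 74 counts.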
